A study of Mus musculus with 8 samples.

Results

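The regions described here are the broad stretches of open chromatin in mouse hepatocytes, 2000 bp or wider, that were found before and after partial hepatectomy (PHx), an operation after which the remaining liver regrows. They were chosen by width and presence: the 50000 strongest distinct intervals of each of 8 bulk ATAC-Seq peak lists on chromosomes 1 to 19 and X were merged wherever they overlapped by at least 1 bp, and a merged region was kept if it was at least 2000 bp wide and touched by an interval in all 8 lists. This gave 385 broad regions among 28524 regions found in all 8 lists (1.35%) and 73720 merged regions in all (0.522%). A further 72 regions were as wide but were missing from at least 1 list. The width, the presence and the strength of these regions in the lists were used to choose them, so they are given as descriptions with no test, and only the comparisons between time points were tested.

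ATAC-Seq uses the Tn5 transposase to insert sequencing adapters into DNA that is not wrapped around nucleosomes. The livers came from C57BL/6 mice of 10 to 12 weeks on a normal diet. The study's text gives the animals as male and describes biological replicates from separate hepatocyte preparations, more of them at 0 and 48 h than were analysed here. Hepatocytes were isolated with collagenase, either from undamaged liver, called 0 h here, or 48, 72 or 96 h after PHx, and each time point had 2 libraries. The labels number these libraries as replicates without tying each to an animal, so p-values measure the spread between these libraries, part of which may be technical. At 72 h, replicate 2 is deposited under a name that lacks the sequencing run shared by the names of the other 7 libraries. The lists hold no read counts and the depth is unknown. After collapsing, they held 105185 to 154545 distinct intervals, and the kept intervals covered 25.68 to 32.51 Mb, least in 96 h replicate 2 and 48 h replicate 1. Of 27 hepatocyte transcription factor genes, 20 to 25 had a kept interval within 1 kb of a transcription start site (TSS), against 0 of 12 Kupffer and leukocyte marker genes and 0 to 1 of 10 endothelial marker genes in every list. For 33 adult hepatocyte metabolism genes the number varied more between lists, from 13 to 29. For biliary and progenitor markers it was 7 to 9 of 20 genes and for stellate and fibroblast markers 3 to 4 of 11, and the part of other cells in the results was not tested. In such bulk samples, fewer cells of a type and less open chromatin per cell cannot be told apart.

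A typical open promoter is a short gap between nucleosomes just before a TSS. At the promoters of genes rich in CpG dinucleotides, the so-called CpG islands, the gap can be wider because these sequences are usually unmethylated and bound by many factors. At the other end of a gene, RNA polymerase II runs past the site where the transcript is cut and polyadenylated before it leaves the DNA, and at highly transcribed genes the chromatin of the gene body and its 3′ flank is known to be loosened by this traffic. The hepatocyte is a secretory and metabolic cell, in which a small number of genes, among them those of albumin, apolipoproteins and acute phase proteins, supply much of the messenger RNA.

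Most broad regions lay at one of these kinds of gene boundary. By a rule set after the values had been seen, each region was assigned to the nearest start or 3′ end of an annotated protein-coding transcript within 3 kb of its midpoint. Of the 385 broad regions, 243 (63.1%) were centred on a TSS, 79 (20.5%) on a 3′ end and 63 (16.4%) on neither. Among the other 28139 regions found in all 8 lists, the shares were 37.8%, 6.36% and 55.9%. The wider the region, the larger was the share at 3′ ends. Of the 20 broad regions with the widest single interval (median of the 8 lists), 13 were centred on a 3′ end and 4 on a TSS, and of the widest 50 it was 30 and 15. Counted by TSS of any gene type within 1 kb, 273 broad regions (70.9%) were at promoters, 71 lay elsewhere in a gene and 41 were intergenic, whereas 11262 of the other 28139 regions were at promoters.

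Sequence set the TSS and 3′ end groups apart. To show this, 150 bases around the strongest summit are printed for 7 regions with wide single intervals, 3 at 3′ ends and 4 at TSS, skipping windows that overlapped an untranslated region. All are read from the plus strand of GRCm38.p6, the build of the files (mm10), and CG dinucleotides are in capitals.
Slc25a47 3′ end, chr12:108857129-108857278: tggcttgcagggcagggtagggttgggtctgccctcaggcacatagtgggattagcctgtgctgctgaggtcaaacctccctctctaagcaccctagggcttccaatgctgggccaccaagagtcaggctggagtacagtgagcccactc
Hp and Txnl4b 3′ ends, chr8:109574209-109574358: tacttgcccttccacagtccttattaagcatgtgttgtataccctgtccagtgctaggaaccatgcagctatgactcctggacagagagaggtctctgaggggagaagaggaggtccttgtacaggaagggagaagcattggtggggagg
Ahsg 3′ end, chr16:22899969-22900118: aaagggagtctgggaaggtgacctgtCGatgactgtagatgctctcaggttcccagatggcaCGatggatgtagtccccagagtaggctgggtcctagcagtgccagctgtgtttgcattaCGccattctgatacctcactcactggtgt
Iqcn TSS, chr8:70701641-70701790: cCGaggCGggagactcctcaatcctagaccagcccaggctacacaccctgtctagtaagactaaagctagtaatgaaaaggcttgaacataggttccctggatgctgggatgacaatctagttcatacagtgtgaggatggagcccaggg
Necab2 TSS, chr8:119446322-119446471: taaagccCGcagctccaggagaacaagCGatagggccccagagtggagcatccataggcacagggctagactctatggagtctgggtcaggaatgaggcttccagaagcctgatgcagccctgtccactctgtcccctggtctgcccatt
Klf13 TSS, chr7:63937743-63937892: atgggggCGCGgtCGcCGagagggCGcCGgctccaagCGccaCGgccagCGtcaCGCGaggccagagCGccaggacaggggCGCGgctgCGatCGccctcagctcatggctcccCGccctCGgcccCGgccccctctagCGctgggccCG
Ncoa2 TSS, chr1:13372802-13372951: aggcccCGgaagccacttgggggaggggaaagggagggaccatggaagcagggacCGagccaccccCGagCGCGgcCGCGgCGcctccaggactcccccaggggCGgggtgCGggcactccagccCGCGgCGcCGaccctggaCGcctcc

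The 3 windows at 3′ ends held 0 to 3 CG dinucleotides. Those at the Klf13 and Ncoa2 promoters held 21 and 15, and the 2 other TSS windows held 2 each. The Iqcn region is counted with the TSS group because of a transcript start of Iqcn, but it also lies at the 3′ end of Jund, an immediate early gene of the AP-1 family. Over whole regions, the TSS-centred broad regions had a median GC content of 63.1% and a median ratio of observed to expected CpG of 0.762, and 194 of 243 (79.8%) met the usual limits of a CpG island, a GC content of at least 50% and a ratio of at least 0.6. The other TSS-centred regions had medians of 60.0% and 0.716, and 70.9% met the limits. The 3′-end-centred broad regions had medians of 49.0% and 0.205, and 3 of 79 (3.80%) met the limits, against 9.21% of the other 3′-end-centred regions. Broad regions at 3′ ends were thus not island-like by these limits, with 3 exceptions.

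Short motifs were sought on both strands in the 200 bp around the strongest summit of each region. The GC box GGGCGG, bound by SP and KLF factors, was present in 69.5% of TSS-centred and 8.86% of 3′-end-centred broad regions, and in 61.7% and 13.9% of the other regions of these groups. CCAAT, the letters of the CCAAT box, occurred in 27.6% and 25.3% of the broad regions of these groups, compared with 24.1% of all other regions found in every list. The AP-1 letters TGANTCA were present in 4.16% of all broad and 6.82% of all other regions, the C/EBP letters TTGCNNAA in 8.05% and 10.9%, the FOXA letters TGTTTAC in 2.60% and 4.28%, and the HNF4 letters CAAAGTCCA in 0.779% and 1.07%. These pooled shares depend in part on the larger share of TSS-centred regions among the broad ones, and the groups differed in direction. Within the TSS-centred regions the C/EBP letters were in 5.35% of the broad and 4.47% of the other regions, the FOXA letters in 2.47% and 1.59%, the HNF4 letters in 1.23% and 0.358%, and the AP-1 letters in 2.06% and 2.87%. A match is a description of the letters and not a bound site. The GC box and CCAAT can occur side by side in 1 window, and windows with both were counted under each.

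Broad regions at 3′ ends reached downstream. In 76 of 79 the region extended past the annotated 3′ end in the direction of transcription, and in 59 more than 50% of its length lay past it. Typically the region began 487 bp before the 3′ end and ended 2237 bp after it (medians), and 32 began after it. The assignment limits the distance of the midpoint from the 3′ end to 3 kb and names no side. A midpoint nearer to a TSS went to the TSS group, however, so in short genes less room was left before the 3′ end than after it. How far this raised the counts was not tested, and no such counts are given here for the narrower 3′-end-centred regions. The share of the 79 regions covered by a kept interval was highest 850 bp past the 3′ end, at 63.1% on average over the libraries and 49.4% to 68.3% in single libraries, and it stayed at 50% or more from 250 to 1550 bp past it. Around the TSS the coverage had its maximum of 91.7% at 50 bp before it and reached further downstream, with 23.7% at 1050 bp upstream and 39.4% at 1050 bp downstream (means of the libraries). In the 219 TSS-centred regions whose coding starts all pointed one way, a median of 962 bp lay upstream and 1240 bp downstream, and 145 reached further downstream. Coding starts on both strands were found in 21 TSS-centred broad regions (8.64%) and in 8.21% of the other TSS-centred regions.

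**Figure D1:**
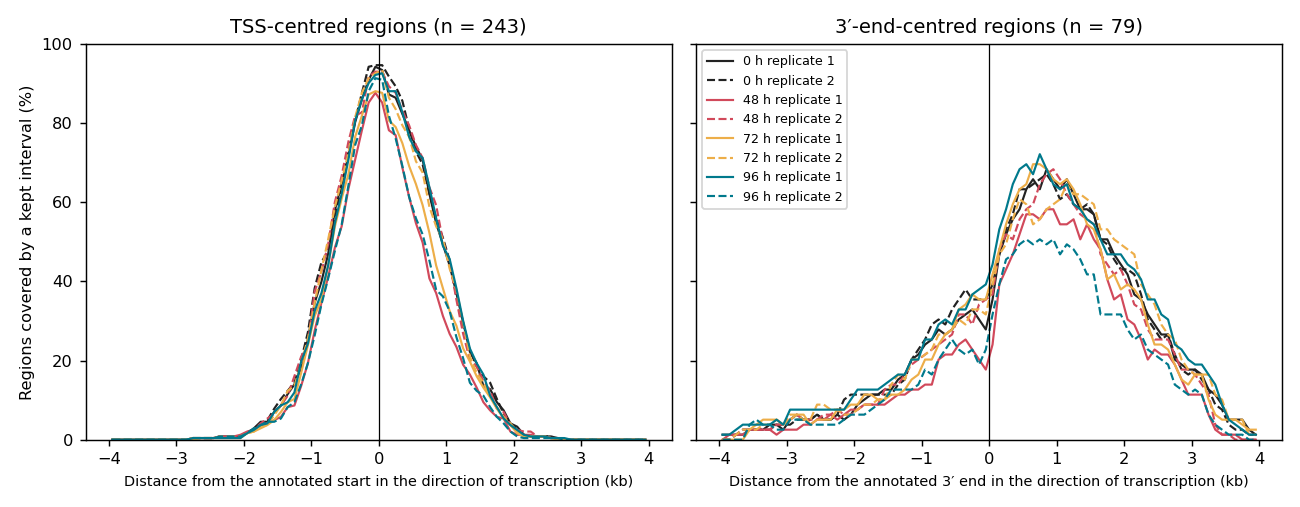
Share of the 243 TSS-centred (left) and 79 3′-end-centred (right) broad regions covered by a kept interval, in bins of 100 bp by distance from the annotated start or 3′ end in the direction of transcription, with 1 line per library. Coverage peaks at the TSS on the left, and on the right it peaks about 850 bp past the 3′ end in the mean of the 8 libraries. At that distance 96 h replicate 2 was lowest (49.4%), and 48 h replicate 1 and 72 h replicate 2 came next with equal shares (58.2%).

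Broad regions were wide but not high. Fold enrichment is the peak caller's ratio of signal at the summit to local background. Its median over the 385 broad regions was between 6.18 (48 h replicate 1) and 8.21 (0 h replicate 2) in the 8 lists, whereas for the other regions it was between 8.17 and 11.7 in the same lists. The 3′-end-centred broad regions were the lowest, with a median of 4.04, compared with 8.27 for the TSS-centred broad regions and 6.88 for the broad regions at neither. The other 3′-end-centred regions had a median of 9.35. Between 16 and 21 broad regions per list (4.16% to 5.45%) ranked among the 1000 strongest intervals, against 3.48% to 3.49% of the other regions. The median number of summits was 5 at TSS-centred and 5.50 at 3′-end-centred broad regions. Neighbouring summits of an interval were a median of 266 to 293 bp apart in the 8 lists, and 255 to 275 bp in the other regions.

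**Figure D2:**
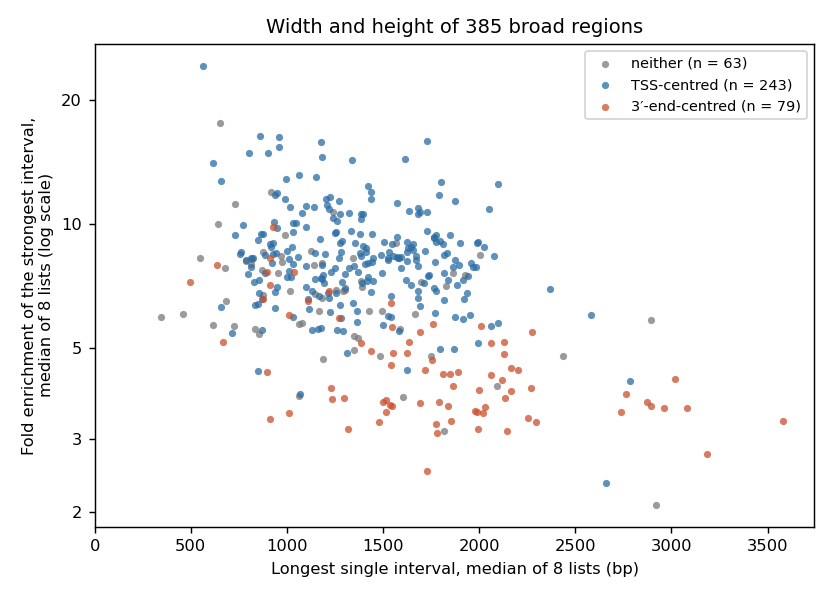
Each point is 1 of the 385 broad regions, placed by its longest single interval (bp) and by the fold enrichment of its strongest interval (log scale), both as medians of the 8 lists, and coloured by the boundary it is centred on. The 3′-end-centred regions lie lower and reach further right than the TSS-centred ones, with median fold enrichments of 4.04 and 8.27 and median longest intervals of 1758 and 1352 bp.

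Few broad regions were a single 2000 bp interval everywhere. The merged width ran from 2001 to 4176 bp with a median of 2175 bp, but an interval of 2000 bp or more was present in all 8 lists in 13 regions, in 1 to 7 lists in 197 and in none in 175. The last group reached 2000 bp only when the lists were joined. Among the 13, 8 were centred on a 3′ end, 4 on a TSS and 1 on neither. A single interval in every list was found in 32 of 79 (40.5%) 3′-end-centred and 47 of 243 (19.3%) TSS-centred regions. At the limit, 6 regions were 2001 bp wide, among them the 3 given here, at the Wee1 promoter and at 2 places with no TSS within 1 kb, one of them past the 3′ end of Gabarapl1. The 3 just outside were 1999 bp wide, at the promoters of Fes, Syncrip and 2210011C24Rik. The median longest interval was 729 to 1755.5 bp in the 3 inside and 774.5 to 1100.5 bp in the 3 outside.

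The regions with the longest single intervals, by the median of the 8 lists, lay mostly at 3′ ends. At the 3′ ends of Slc25a47, a mitochondrial carrier of the liver, and Wars, a transfer RNA synthetase, the median longest interval was 3184.5 bp (chromosome 12, 108856015 to 108860025). At the 3′ ends of Txnl4b and of Hp, which encodes the haemoglobin-binding plasma protein haptoglobin, it was 3079 bp (chromosome 8, 109571431 to 109575125). At Ahsg, which encodes the plasma glycoprotein fetuin-A, it was 3017.5 bp (chromosome 16, 22898218 to 22901309). The Ahsg region was steady, with 2759 bp in 96 h replicate 2 and 2943 to 3076 bp in the other 7 libraries. Beginning 563 bp past the end of Vmp1, at the start of the microRNA gene Mir21a, it was 2961 bp (chromosome 11, 86580071 to 86583302), and the region covered 2736 to 3160 bp in the 8 libraries. The eighth widest, at Fam32a (chromosome 8, 72220638 to 72224526), held the 3′ end of that gene, with 2.78% of its length past it and a start of the gene within 1 kb.

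Several of the widest regions belonged to noncoding RNA genes. Within Neat1, the long noncoding RNA that builds nuclear paraspeckles (chromosome 19, 5838502 to 5842452), the region covered 3531 and 1963 bp at 0 h, 2635 and 3109 bp at 48 h, 3501 and 2732 bp at 72 h, and 3307 and 3041 bp at 96 h, at a median fold enrichment of 2.08, the lowest of the 8 widest regions. At the locus of miR-122, the most abundant microRNA of the liver (chromosome 18, 65248667 to 65251629), 2282 to 2908 bp were covered, as 1 interval in 7 of 8 lists. At the start of Mir17hg, the host of the miR-17 cluster (chromosome 14, 115040528 to 115042589), 1816 to 2048 bp were covered, as 1 interval in all 8 lists. A region of another kind lay over the genes Gm11407, Gm11408 and Gm11410 on chromosome 4 (80002347 to 80005268). Its interval measured 2867 to 2922 bp in the 8 lists and ranked 13 to 42, so that it was both among the widest and among the strongest intervals of every list, with nearly fixed edges. How far reads that map to several places contributed there was not tested.

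Broad regions at 3′ ends were found at plasma protein genes, immediate early genes and ubiquitous genes. For each coding gene it was asked whether a broad region lay within 1 kb of a TSS, or contained the 3′ end or began up to 1 kb past it. Of all 21644 coding genes, 275 (1.27%) met the first and 101 (0.467%) the second condition. The lists of genes were chosen with earlier results of these data known, and the counts carry no test. Of 33 adult hepatocyte metabolism genes, 10 had a broad region at the 3′ end and 0 at the TSS. They were Alb (albumin), Apoa1, Apoc3, Apob and Apoe (apolipoproteins), Fgb (fibrinogen beta chain), Hp, Serpina1a (a protease inhibitor of plasma), Tdo2 (the first enzyme of tryptophan breakdown) and Ttr (the thyroxine carrier transthyretin). Of 40 immediate early genes, which are transcribed within minutes of a growth or stress signal, 10 had one at the 3′ end (Btg2, Ccn1, Dusp6, Egr1, Id3, Ier2, Jun, Junb, Jund and Zfp36) and 2 at the TSS (Ier5 and Jun). Of 22 ubiquitous genes, 5 had one at the 3′ end (among them Actg1, Eef1a1, Hspa8 and Ubb) and 2 at the TSS. Apoa1 and Apoc3 share 1 region. Among genes on no list, seen only after the values were known, Mt1 (metallothionein), Selenop (the plasma selenium carrier), Gpx1 (glutathione peroxidase), Clu (clusterin) and Gdf15 (a stress-induced cytokine) also had a broad region centred on the 3′ end.

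**Figure D3:**
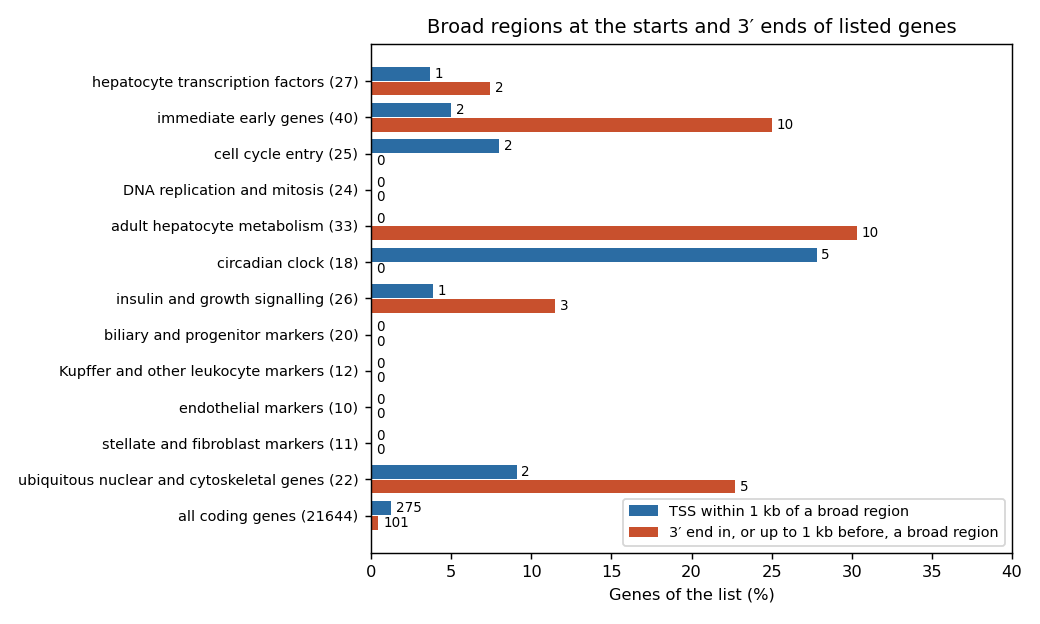
Share of the genes of each list, in percent, with a broad region within 1 kb of a TSS (blue) or at the 3′ end (orange), with the number of genes beside each bar and the number on the list in brackets. The 3′ end bars are longest for adult hepatocyte metabolism (30.3%), immediate early genes (10 of 40) and ubiquitous genes (22.7%), the TSS bar for the circadian clock (27.8%), and all coding genes stand at 1.27% and 0.467%.

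The TSS-centred region at a start of Iqcn, among those with the longest single intervals, also lies at the 3′ end of Jund, and its CpG ratio was 0.158. The others were at the promoters of Necab2, of Klf13, a zinc finger factor that binds GC boxes, and of Ncoa2, a coactivator of nuclear receptors. The windows of Iqcn and Necab2 above held few CG dinucleotides. At Klf13 (chromosome 7, 63937120 to 63939756) 2628 and 2612 bp were covered at 0 h, 2282 and 2622 bp at 48 h, 2284 and 2568 bp at 72 h, and 2599 and 2051 bp at 96 h. At Ncoa2 (chromosome 1, 13372197 to 13374806) 2259 to 2586 bp were covered, with an interval of 2000 bp or more in all 8 lists, and at Trio, a guanine nucleotide exchange factor, 1980 to 2163 bp. Their median fold enrichments were 6.01, 6.95 and 12.5. Necab2 was lower, at 2.35, with 2015 to 3174 bp covered.

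At TSS the picture by list was different. Of 18 circadian clock genes, 5 had a broad promoter region (27.8%) and 0 a broad 3′ end. They were Arntl, which encodes the BMAL1 activator, its partner Npas2, the repressor gene Per3, the nuclear receptor gene Rora and the PAR-bZIP factor gene Tef. The Arntl region (chromosome 7, 113206578 to 113208578) covered 1654 and 1418 bp at 0 h, 1926 and 1989 bp at 48 h, 1679 and 1743 bp at 72 h, and 1680 and 1431 bp at 96 h, and its 48 h libraries lay above the other 6. At Npas2 (chromosome 1, 39192399 to 39194598) 1577 to 2106 bp were covered and at Per3 1023 to 1984 bp, and the 0 h libraries overlapped those of each PHx time point in both. At Tef 1556 and 1669 bp were covered at 0 h, 991 and 1315 bp at 48 h, 1586 and 1604 bp at 72 h, and 1009 and 1048 bp at 96 h, so that the 48 and 96 h libraries lay below those of 0 and 72 h. At Rora 1364 and 1097 bp were covered at 0 h, 950 and 1011 bp at 48 h, 1193 and 1402 bp at 72 h, and 1093 and 1093 bp at 96 h, with the 48 h libraries below the other 6. Of 25 cell cycle entry genes, 2 had a broad promoter region, both of them inhibitors of cyclin-dependent kinases (Cdkn1a, which encodes p21, and Cdkn2c). At Cdkn1a (chromosome 17, 29093554 to 29095892) 1777 and 1143 bp were covered at 0 h, 764 and 1734 bp at 48 h, 1912 and 1664 bp at 72 h, and 1476 and 1261 bp at 96 h, and the 0 h libraries overlapped those of each PHx time point. Of 24 DNA replication and mitosis genes, 22 had a region of any width at the TSS in all 8 lists and 0 a broad one. Pole, a replication gene that is not on this list, had one, and with 1.27% over all coding genes a count of 0 in so short a list says little. Among hepatocyte transcription factors, Gata4 had a broad promoter and Cebpb and Rxra a broad 3′ end. Of the insulin and growth signalling genes, Igfbp1, Igfbp2 and Insig1 had a broad 3′ end and Ppargc1b a broad promoter. The biliary, leukocyte, endothelial and stellate marker genes had none at either end.

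At most of these genes the promoter had a narrower kept interval than the 3′ end or none. For the gene nearest to each of the 79 regions, a kept interval within 1 kb of a coding TSS was found in all 8 lists in 38 cases, in 1 to 7 lists in 31 and in none in 10. In the full deposited lists, with no limit on rank, it was all 8 lists in 53 cases and none in 3. The strongest promoter interval of the 69 genes with one had a median width of 552 bp, and the longest interval at the 3′ end was wider than it in 62. This is in part set by the choice, since the 3′ end regions were taken for their width and the promoters were not. The fold enrichment at the 3′ end was below that of the promoter in 42 of the 69. Where several genes end in a region only the nearest was used, so the Hp region was set against the Txnl4b promoter. Ubb, Actg1, Apoe, Ier2 and Zfp36 had no kept promoter interval in any list, and Alb and Btg2 had one in 1 list. In the full lists, an interval at the Zfp36 promoter was found in 1 of 8 lists, at Actg1 in 2, at Ubb in 4, at Apoe in 6 and at Ier2 in none. For Alb the 3′ end region (chromosome 5, 90476095 to 90478158) covered 1811 and 1919 bp at 0 h, 1582 and 2034 bp at 48 h, 1739 and 1923 bp at 72 h, and 1734 and 1193 bp at 96 h, and 75.4% of it lay past the 3′ end.

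The first comparison between time points asked whether the broad regions as a group changed in width, number of summits, rank or continuity after PHx. Each library gave 1 value per measure, and the spread between time points was tested by exact permutation with every one of the 105 possible sets of 4 pairs of libraries (smallest possible p 0.00952), with Benjamini-Hochberg adjustment over the 4 measures. The median number of bases covered was 1769 and 1821 bp at 0 h, 1426 and 1759 bp at 48 h, 1609 and 1761 bp at 72 h, and 1783 and 1390 bp at 96 h. The lowest values were those of 96 h replicate 2 and 48 h replicate 1, whose lists also covered the fewest bases as a whole. On the log2 scale, the median of the broad regions was set against that of all regions found in every list, the broad ones included. It was higher by 1.373 and 1.502 in undamaged liver, 1.26 and 1.35 at 48 h, 1.32 and 1.31 after 72 h, and 1.38 and 1.27 at 96 h (exact permutation p = 0.333, adjusted 0.667, n = 8). The 0 h libraries were above those of 48 and 72 h, and they overlapped those of 96 h. The mean number of summits per region ranged from 4.16 to 5.53 and did not separate the time points (exact permutation p = 1.0, adjusted 1.0, n = 8). The median rank of the strongest interval, where 1 is the strongest, ranged from 12007 to 14034 (exact permutation p = 0.276, adjusted 0.667, n = 8). The share of regions covered by 1 interval was 63.1% and 68.3% in undamaged liver, 50.6% and 67.5% at 48 h, 59.7% and 70.6% after 72 h, and 65.5% and 55.1% at 96 h (exact permutation p = 0.790, adjusted 1.0, n = 8). For none of the 4 measures was the spread between time points beyond that of arbitrary pairs.

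**Figure D4:**
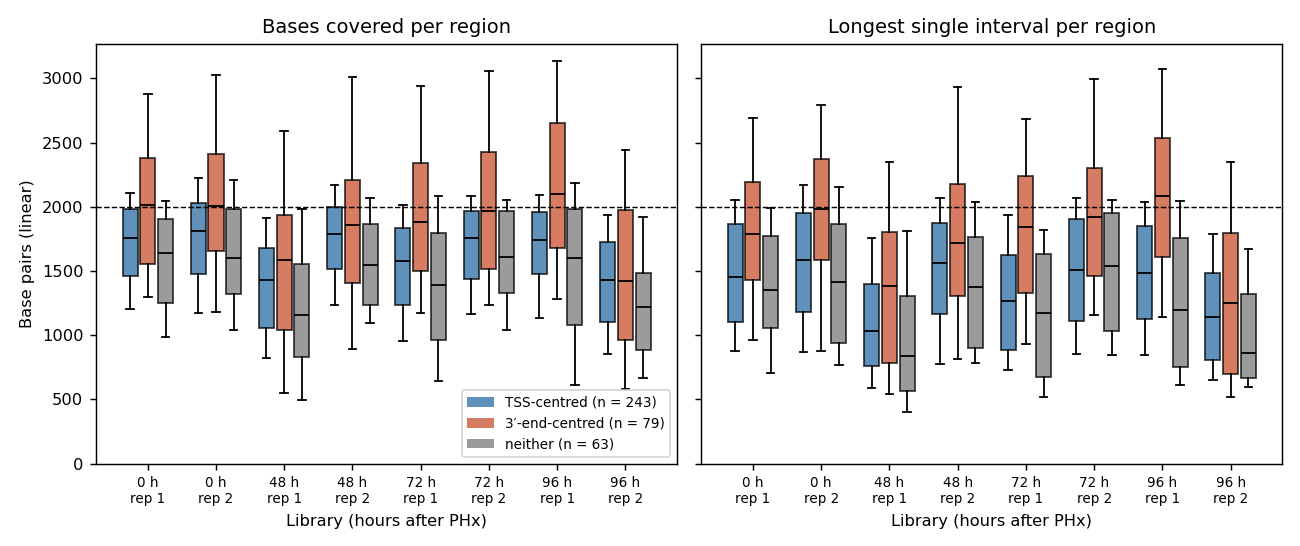
Bases covered (left) and longest single interval (right) of the broad regions in each of the 8 libraries, in bp on a linear scale. Boxes show the quartiles with the median, whiskers the 10th and 90th percentiles, colours the boundary a region is centred on, and the dashed line 2000 bp; boxes are lower in 48 h replicate 1 and 96 h replicate 2 than in the other libraries.

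The second comparison asked which single broad regions differed from undamaged liver at each time point. limma was fitted to the log2 covered width, centred on the median of each library, and to the log2 rank of the strongest interval over all 28524 regions. At an adjusted p under 0.05, 0 regions of any kind were called for width at 48 h (0%), 72 h (0%) or 96 h (0%) or for rank at 48 h (0%), 72 h (0%) or 96 h (0%). At an unadjusted p under 0.05 there were 37, 28 and 24 broad regions for width (9.61%, 7.27% and 6.23%), against 6.58%, 5.26% and 5.19% of all regions tested. For rank there were 47, 38 and 23 broad regions (12.2%, 9.87% and 5.97%), against 12.3%, 8.12% and 5.92%. With 2 libraries per time point these fits could find little. In simulated data for 48 h against 0 h with these spreads, 3 of 100 regions changed by 1 log2 unit in width and 58 of 100 changed by 2 units were recovered, and 0 of 100 at either size in rank. Changes of this order may therefore be present and not called.

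As a description, regions were counted in which both libraries of a time point lay beyond both 0 h libraries. By centred width, 111 broad regions (28.8%) were narrower at 48 h and 45 (11.7%) were wider, where the shares over all regions were 17.0% and 17.8%. At 72 h, 108 (28.1%) were narrower and 41 (10.6%) wider, against 17.1% and 17.1%. At 96 h, 86 (22.3%) were narrower and 46 (11.9%) wider, against 15.1% and 17.6%. Broad regions were thus more often narrower than wider at each time point, whereas all regions were close to even. The 3 time points share the 0 h libraries and their chance deviations. The members were chosen by width, and 0 h replicate 2 had the widest intervals at these regions relative to all regions (1.502 log2 units). The value of 0 h replicate 1 (1.373) was close to that of 96 h replicate 1 (1.378). Without 0 h replicate 2, the median differences of the broad regions were −0.0591, −0.0667 and −0.0394 at 48, 72 and 96 h. With all libraries they were −0.104, −0.102 and −0.0728. The part of the choice in this difference was not tested.

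By rank the broad regions as a whole were near the background. At 48 h, 86 (22.3%) ranked stronger and 101 (26.2%) weaker than in both 0 h libraries, against 20.7% and 24.3% of all regions. At 72 h, 71 (18.4%) ranked stronger and 105 (27.3%) weaker, against 20.3% and 22.8%, and at 96 h, 51 (13.2%) and 66 (17.1%), against 16.3% and 19.1%. The groups by boundary gave different counts. Of the 79 regions at 3′ ends, 30 ranked stronger and 12 (15.2%) weaker at 48 h, while of the 243 at TSS 44 (18.1%) ranked stronger and 78 (32.1%) weaker. The narrower regions of the same groups leaned the same way, with 27.3% stronger and 19.2% weaker at 3′ ends and 16.2% and 29.4% at TSS. The difference between the groups was not tested. The median fold enrichment of the broad 3′ end regions was 4.012 and 4.18 in undamaged liver and 3.954 and 3.996 at 48 h, while that of the other regions in the lists was 11.7 and 11.4 in undamaged liver and 8.17 and 8.88 at 48 h. These medians cover all 79 regions, whether they gained or lost in rank, and single regions differed. At Hspa8 the fold enrichment was 3.27 and 3.17 in undamaged liver and 4.23 and 3.58 at 48 h, and at Fgg 3.17 and 3.25, then 3.75 and 4.25, whereas at Hpx it was 3.46 and 4.27, then 3.49 and 3.16.

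Among the 5 regions with the largest gain in rank at 48 h, 3 were at 3′ ends. The region past Hspa8, which encodes the constitutive chaperone HSC70 (chromosome 9, 40805262 to 40808572), ranked 8647 and 30683 in undamaged liver, 1414 and 7916 at 48 h, 17238 and 11527 after 72 h, and 10598 and 9444 at 96 h, a log2 difference of −2.28 ± 0.77 (SE, n = 2 and 2) at 48 h (limma, adjusted p = 0.287). It also covered more bases at 48 h, 2887 and 3228 bp against 2346 and 2591 bp at 0 h. The region over Jun and its 3′ flank, which encodes the AP-1 subunit c-Jun (chromosome 4, 95047863 to 95051244), ranked 766 and 1220 in undamaged liver, 493 and 82 at 48 h, 347 and 246 after 72 h, and 169 and 2905 at 96 h (−2.27 ± 1.06, adjusted p = 0.408). While stronger at 48 h, it was narrower, with 1519 and 2084 bp against 2733 and 3028 bp. The region just past Fgg, the gene of the fibrinogen gamma chain (chromosome 3, 83015053 to 83017286), ranked 19438 and 28669 in undamaged liver, 8633 and 3428 at 48 h, 9679 and 8860 after 72 h, and 25706 and 10972 at 96 h (−2.12 ± 0.60, adjusted p = 0.238). The other 2 were the promoters of Rnpepl1, an aminopeptidase-like gene (−2.34 ± 0.52, adjusted p = 0.199), and Mob3b, of the MOB kinase-activator family (−2.15 ± 0.54, adjusted p = 0.207). The Rnpepl1 promoter ranked 2652 and 2102 in undamaged liver and between 432 and 1046 in all 6 PHx libraries.

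Other plasma protein genes were looked up after these values had been seen. The region at Hpx, which encodes the haem-binding hemopexin (chromosome 7, 105590021 to 105593191), ranked 15801 and 24557 in undamaged liver, 5460 and 5265 at 48 h, 8348 and 4301 after 72 h, and 7384 and 12563 at 96 h (−1.88 ± 0.55 at 48 h, adjusted p = 0.241). The Hp region ranked 37124 and 46241 in undamaged liver, 21353 and 11207 at 48 h, 31663 and 15633 after 72 h, and 33182 and 22376 at 96 h (−1.42 ± 0.56, adjusted p = 0.344). In the Hpx and Hp regions all 6 PHx libraries ranked stronger than both 0 h libraries. The Fgb region ranked 11135 and 16310 in undamaged liver and 9427 and 4793 at 48 h, and the Alb region 22942 and 12235 in undamaged liver and 10707 and 6762 at 48 h, with no overlap between the pairs in either. The Mir21a region ranked 10629 and 21802 in undamaged liver, 4479 and 4243 at 48 h, 6799 and 6951 after 72 h, and 8472 and 16449 at 96 h (−1.80 ± 0.55, adjusted p = 0.248). None of these passed the test. The direction was not shared by all genes of this kind. Of the 9 broad regions at 3′ ends of the adult hepatocyte metabolism list, the 48 h difference in log2 rank was below 0 (stronger) in 5 and above 0 in 4. The latter were the regions of Apoa1 and Apoc3 (1.004 ± 0.596, limma adjusted p = 0.515), Apoe (0.22 ± 0.70, adjusted p = 0.929), Serpina1a (0.53 ± 0.49, adjusted p = 0.697) and Tdo2 (0.81 ± 0.57, adjusted p = 0.583).

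The largest losses in rank at 48 h were at promoters and at 1 intergenic region. The promoter shared by Pole, the catalytic subunit of DNA polymerase epsilon, and Pxmp2, a peroxisomal membrane protein (chromosome 5, 110284631 to 110286662), ranked 419 and 356 in undamaged liver, 2915 and 2076 at 48 h, 465 and 408 after 72 h, and 1524 and 1181 at 96 h, a log2 difference of 2.67 ± 0.50 (limma, adjusted p = 0.168). The promoter of 1190002N15Rik (chromosome 9, 94536965 to 94539082) ranked 879 and 1054 in undamaged liver, 6289 and 5140 at 48 h, 2262 and 2054 after 72 h, and 1730 and 758 at 96 h (2.56 ± 0.54, adjusted p = 0.187). Its width hardly varied, from 2015 to 2063 bp in the 8 libraries. The promoters of Gabarapl2, an autophagy gene (2.38 ± 0.58, adjusted p = 0.206), and Arhgap5 (2.01 ± 0.74, adjusted p = 0.324), moved in the same direction. The intergenic region on chromosome 8 (31272556 to 31274561) ranked 376 and 64 in undamaged liver and 832 and 1914 at 48 h (3.02 ± 0.91, adjusted p = 0.247). It covered 2006 bp in 48 h replicate 2 and 481 to 767 bp in the other 7 libraries, so that 1 library made it broad.

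Among the 5 largest losses of width at 48 h was the 3′ end of Tdo2. There (chromosome 3, 81955694 to 81958131), 1498 and 2001 bp were covered at 0 h, 369 and 508 bp at 48 h, 1711 and 2041 bp at 72 h, and 2050 and 2006 bp at 96 h, a log2 difference of −1.95 ± 0.23 (SE, n = 2 and 2) at 48 h (limma, adjusted p = 0.230). Both 48 h libraries lay far below the other 6. The strongest intervals at Tdo2 ranked 36718 and 16060 in undamaged liver and 36475 and 49967 at 48 h, so that 1 library was close to the limit of 50000 beyond which no interval was kept. Others were an intergenic region on chromosome 15 (88850214 to 88852331), with 1708 and 1372 bp at 0 h and 195 and 554 bp at 48 h (−2.17 ± 0.51, adjusted p = 0.518), and the promoters of Zbtb10, a zinc finger gene (−1.67 ± 0.58, adjusted p = 0.684), and Hsp90ab1, a constitutive HSP90 gene (−1.46 ± 0.52, adjusted p = 0.702). Among 3′ ends looked up after these values had been seen, Thrsp, a lipogenic gene of the liver, had 2191 and 2184 bp at 0 h, 1534 and 682 bp at 48 h, 1385 and 1572 bp at 72 h, and 1636 and 700 bp at 96 h, below 0 h in all 6 PHx libraries, and Sqstm1, which encodes the autophagy receptor p62, had 1665 and 878 bp at 0 h, 394 and 499 bp at 48 h, 1817 and 1713 bp at 72 h, and 2499 and 778 bp at 96 h.

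**Figure D5:**
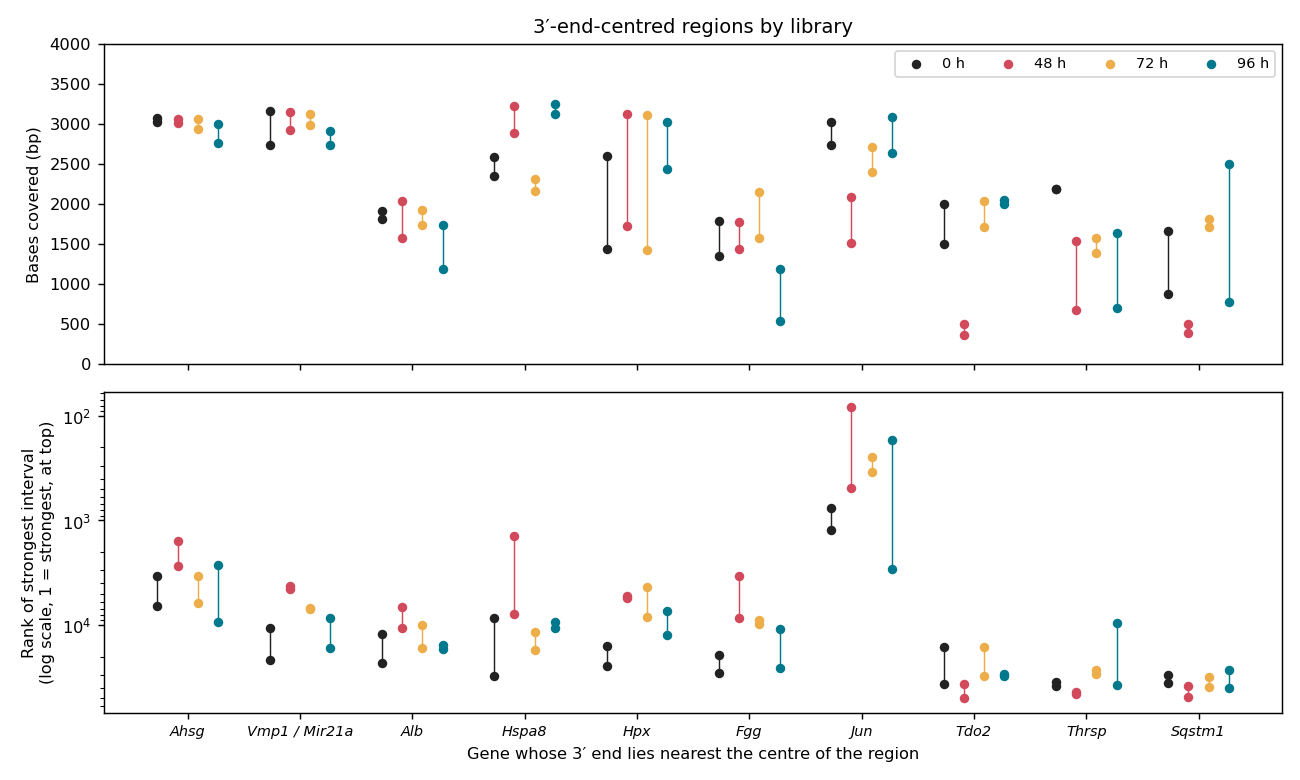
Bases covered (top) and rank of the strongest interval (bottom, log scale with the strongest at the top) at 10 3′-end-centred broad regions, with 1 point per library, lines joining the 2 libraries of a time point and colours for the time points. The 10 were picked by hand from those named in the text. The regions of Apoa1 and Apoc3, Apoe and Serpina1a, whose 48 h difference in log2 rank was above 0 (weaker), are not drawn. At Tdo2 both 48 h libraries (369 and 508 bp) lie below the other 6, and at Hpx and Fgg both 48 h libraries rank stronger than both 0 h libraries.

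The largest gains of width at 48 h were at the promoters of Phyhipl (0.80 ± 0.33 on the log2 scale, adjusted p = 0.735), of Nln and Sgtb (0.78 ± 0.32, adjusted p = 0.736), of Cttn, which encodes the actin-binding protein cortactin (0.76 ± 0.37, adjusted p = 0.797), and of Zbp1, a sensor of nucleic acids (0.71 ± 0.29, adjusted p = 0.741). The largest gain was that of the intergenic region on chromosome 8 named above, which covered 731 and 2006 bp at 48 h and 767 and 633 bp at 0 h. The Zbp1 region covered 1205 and 1073 bp at 0 h, 2049 and 1590 bp at 48 h, 637 and 1089 bp at 72 h, and 1193 and 1337 bp at 96 h. Its 48 h libraries lay above the other 6, and the difference did not pass the test. The gains were smaller than the losses, the largest being 0.84 ± 0.39 (adjusted p = 0.776) against a loss of 2.17. A covered width cannot exceed the merged width, however. The 385 broad regions covered a median of 1769 and 1821 bp at 0 h, and their median merged width was 2175 bp. Chosen by width, they thus had less room for gains than for losses.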

How the data were processed

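Bulk ATAC-Seq was measured in 8 libraries at 4 time points. Per the study's methods, the authors ran the ENCODE pipeline, in which reads were trimmed and mapped to mm10 with Bowtie2, duplicates were discarded, and MACS2 called the peaks of each library. Replicates were not pooled. The names of the lists mark Tn5-shifted reads, a relaxed p limit and a filter on excluded regions. The deposited lists give a display score, which was not used, a fold enrichment over local background, −log10 p and −log10 q values, and a summit for each peak. All are the authors' peak caller's own values. Versions are not given in the sources used here. The lists hold no counts, so the depth per library is unknown and no confidence interval on a peak was computed.

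Lines of one interval were collapsed to the highest −log10 p, and the 50000 strongest intervals on chromosomes 1 to 19 and X were kept and merged at 1 bp. Covered width is the sum of kept intervals in a region. limma (version 3.58.1, R 4.3.3) was fitted to all 28524 regions found in every list, with Benjamini-Hochberg adjustment and a threshold of 0.05, and was tested on simulated data. Single values were compared by exact permutation. Annotation was GENCODE M21 basic, and sequence GRCm38.p6, on which 0 regions passed a chromosome's end. Sequences on chromosome 18 were not printed. CpG and motif counts were made in Python 3.11.15. The members and lists were chosen with earlier results of these data known. Named regions were the 8 widest by single interval, the 6 widest away from coding TSS, the 5 largest gains and losses of width and of rank at 48 h (since 0 were called, among regions whose libraries did not overlap those of 0 h), up to 4 promoters per gene list, and 3 on either side of 2000 bp. Some of these are not reported here. Alternatives were other numbers of intervals, a q-value limit, 50% coverage, other scalings, a replicate block, other TSS windows and leaving out each library. The assignment to TSS and 3′ ends was added after the data had been seen.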

Additional observations from a re-analysis of the deposited data

How the results depend on the processing

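The number of broad regions moved with the intervals kept, from 385 to 179 with 25000 intervals per list, 707 with all intervals and 184 when each list had to cover over 50% of a region. Their promoter share moved from 70.9% to 83.2%, 56.9% and 77.2% under the same alternatives, and was 69.9% with TSS within 500 bp, inside its exact 95% binomial interval of 66.1% to 75.4%. A limit on q left the same number, 385. Leaving out 1 library gave 319 to 377 regions and promoter shares of 69.7% to 71.2%. The exact permutation p of the 4 group measures stayed above 0.05 under every alternative run (lowest 0.0857, for width), with ranges over the left-out libraries of 0.124 to 0.867 for width, 0.390 to 1.0 for summits, 0.114 to 0.714 for rank and 0.362 to 0.914 for the single-interval share. limma called 0 broad regions for width or rank at any time point under any alternative run, the replicate block included (0). Same-numbered libraries did not deviate together (correlations between −0.0624 and 0.131, with 1 of 12 over 0.1), so the numbers were not taken as pairs. With boundaries limited to 2 kb, an alternative added after the data had been seen, the shares of regions at TSS, at 3′ ends and at neither were 63.1%, 17.7% and 19.2%. Peak lists without counts, 2 libraries per time point and differing list lengths limit what could be detected, and rank and width both move with the depth of a library, which is unknown.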
